A study of Mus musculus with 2 samples.

Results

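Prostaglandins and leukotrienes are short-range lipid signals made from arachidonic acid by a chain of enzymes, 9 of which are described here in liver non-parenchymal cells: Ptgs1, Ptgs2, Ptges, Hpgds, Hpgd, Alox5, Alox5ap, Lta4h and Ltc4s. They were taken by exact gene symbol from the 27998 genes listed in both libraries, and each symbol matched 1 gene. Of the 27998 genes, 18897 had at least 1 UMI (unique molecular identifier, 1 per captured transcript). All 9 enzymes had UMIs in both libraries, from 44 UMIs over both libraries for Ptges to 19425 for Alox5ap.

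The cells came from mice of 2 genotypes, PKM2FL/FL and PKM2ΔMAC, and mice of both genotypes had been fed an MCD diet for 8 weeks. That diet lacks methionine and choline and produces a fatty, inflamed liver. FL marks a floxed Pkm gene, which encodes the pyruvate kinase isoform PKM2, and the series title places its loss in macrophages. There was 1 library per genotype (FL/FL and ΔMAC below), prepared with a 10x Chromium 3′ kit, so there were no replicates and no test between genotypes. The sources used here do not give the Cre driver, the number of mice per library or any pooling of mice. The kit version is given in the labels only as an open choice. The 3′ tags that were counted cannot check the Pkm deletion.

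After filtering, 9510 FL/FL cells with 49851626 UMIs and 8549 ΔMAC cells with 40446693 UMIs were kept, with medians of 4384 and 3716 UMIs per cell. Scrublet removed 480 and 328 barcodes as likely doublets, and 17 barcode sequences occurred in both libraries. Cells were put into classes by fixed marker genes, which placed 16710 of 18059 cells (92.5%). Class names carry the ending "-like" because they rest on transcripts alone. Levels are CPM, the UMIs of a gene with the UMIs of its class in 1 library scaled to 1000000, and ratios are ΔMAC over FL/FL. Parentheses give 95% intervals (exact Poisson for levels, exact conditional for ratios), which hold counting error and nothing of the spread between cells or mice. CPM shows a gene's share of the transcripts of a class, so more of 1 transcript and less of all others cannot be told apart.

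In the prostaglandin branch, the cyclooxygenases encoded by Ptgs1 (COX-1) and Ptgs2 (COX-2) turn arachidonic acid into prostaglandin H2. Ptges then makes prostaglandin E2, the haematopoietic synthase Hpgds makes prostaglandin D2, and the dehydrogenase Hpgd inactivates prostaglandins. In the leukotriene branch, 5-lipoxygenase (Alox5) works with its membrane partner FLAP (Alox5ap) to make leukotriene A4. Lta4h turns leukotriene A4 into leukotriene B4, a neutrophil attractant, and Ltc4s turns it into leukotriene C4. Cells that hold only the late enzymes can take up leukotriene A4 made by neighbours, and Kupffer cells, sinusoidal endothelial cells and infiltrating myeloid cells are the usual liver sources of these lipids.

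The promoter windows of 4 enzymes with contrasting class patterns are shown to set the inducible cyclooxygenase beside the other genes: Ptgs1 and Ltc4s (both highest in Kupffer-like and endothelial-like cells), Ptgs2 and Alox5 (both high in neutrophil-like and basophil-like cells). Each runs from 250 bases before to 50 bases after the RefSeq start on GRCm38.p6 and is written 5′ to 3′ on the gene's strand. The Ptgs1 window lies at chr2:36230176-36230475 on the plus strand and that of Ptgs2 at chr1:150099781-150100080 on the plus strand. The Alox5 window lies at chr6:116461129-116461428 on the minus strand and that of Ltc4s at chr11:50238483-50238782 on the minus strand. Capitals mark GAGGAA in Ptgs1, Alox5 and Ltc4s (read on the other strand in Ltc4s), and GGGCGG in Alox5. In Ptgs2 they mark CGTCA with the overlapping motif CACGTG, and both matches of TTNNGNAA.
Ptgs1: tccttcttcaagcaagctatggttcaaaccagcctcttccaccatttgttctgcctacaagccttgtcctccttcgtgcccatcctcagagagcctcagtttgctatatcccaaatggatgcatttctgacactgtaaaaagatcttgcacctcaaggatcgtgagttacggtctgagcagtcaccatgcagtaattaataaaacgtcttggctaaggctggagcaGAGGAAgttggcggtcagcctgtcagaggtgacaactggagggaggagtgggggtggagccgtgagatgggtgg
Ptgs2: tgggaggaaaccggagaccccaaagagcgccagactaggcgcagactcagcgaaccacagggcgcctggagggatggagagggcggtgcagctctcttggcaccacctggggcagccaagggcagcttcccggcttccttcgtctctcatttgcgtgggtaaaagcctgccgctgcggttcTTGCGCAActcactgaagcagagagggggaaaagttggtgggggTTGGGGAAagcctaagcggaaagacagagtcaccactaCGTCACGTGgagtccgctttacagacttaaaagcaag
Alox5: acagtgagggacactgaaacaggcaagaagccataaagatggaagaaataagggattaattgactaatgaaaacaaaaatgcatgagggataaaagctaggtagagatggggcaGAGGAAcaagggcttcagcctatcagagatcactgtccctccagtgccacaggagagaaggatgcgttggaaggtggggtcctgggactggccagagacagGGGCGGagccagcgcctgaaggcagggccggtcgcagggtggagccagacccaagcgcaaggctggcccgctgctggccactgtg
Ltc4s: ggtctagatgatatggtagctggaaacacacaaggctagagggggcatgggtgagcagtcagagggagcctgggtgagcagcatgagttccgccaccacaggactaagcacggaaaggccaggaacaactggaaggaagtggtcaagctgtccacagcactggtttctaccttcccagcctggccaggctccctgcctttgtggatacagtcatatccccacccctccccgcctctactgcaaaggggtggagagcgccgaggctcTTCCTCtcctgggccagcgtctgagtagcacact

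RefSeq windows of this length matched 8 of the 9 enzymes, all but Alox5ap. A set of 11 short motifs was searched on both strands, and a match is a description of letters, not a binding site. CGTCA, a short site bound by CREB-type factors, was in the window of Ptgs2 alone among the 8 and in 20.8% of all 32851 windows. CACGTG, the palindromic E-box, was likewise in Ptgs2 alone and in 7.15% of all windows. In Ptgs2 these motifs overlapped, starting at bases 264 and 267 of the window, and CACGTG is also an instance of CANNTG. TTNNGNAA, a C/EBP-type motif, was in Ptgs2, Ptges, Hpgds and Hpgd and in 40.7% of all windows, with 2 matches in Ptgs2.

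GAGGAA, the core bound by PU.1-type factors of myeloid cells, was in all 8 windows and in 28.3% of all windows. GGGCGG, the GC box, was in Ptgs2, Ptges, Alox5 and Hpgd and in 35.7% of all windows. TATAAA was in Hpgd alone and in 13.6% of all windows, and CANNTG was in 6 of the 8 and in 72.3%. TGANTCA, the AP-1 motif (7.81% of all windows), TGACGTCA, the full CREB site (1.79%), AGATAA, the motif of GATA factors (11.2%), and the NF-κB motif (1.63%) matched none of the 8.

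The class patterns fell into 4 kinds. Ptgs1 and Ltc4s were highest in Kupffer-like and endothelial-like cells. Hpgd was highest in Kupffer-like cells and present in monocyte-like, endothelial-like and cDC2-like cells. Ptgs2, Alox5 and Alox5ap were high in neutrophil-like and basophil-like cells, and Lta4h was highest in NK or ILC1-like cells. Unlike Alox5, Ptgs2 and Alox5ap were also high in classical monocyte-like and cDC2-like cells. Ptges was sparse in every class, and Hpgds was highest in Kupffer-like cells among classes of 50 cells or more. The main classes held, in FL/FL and ΔMAC, 778 and 726 neutrophil-like cells, 271 and 157 classical monocyte-like cells, 97 and 104 Kupffer-like cells, 69 and 72 cDC2-like cells, and 68 and 111 endothelial-like cells.

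**Figure D1:**
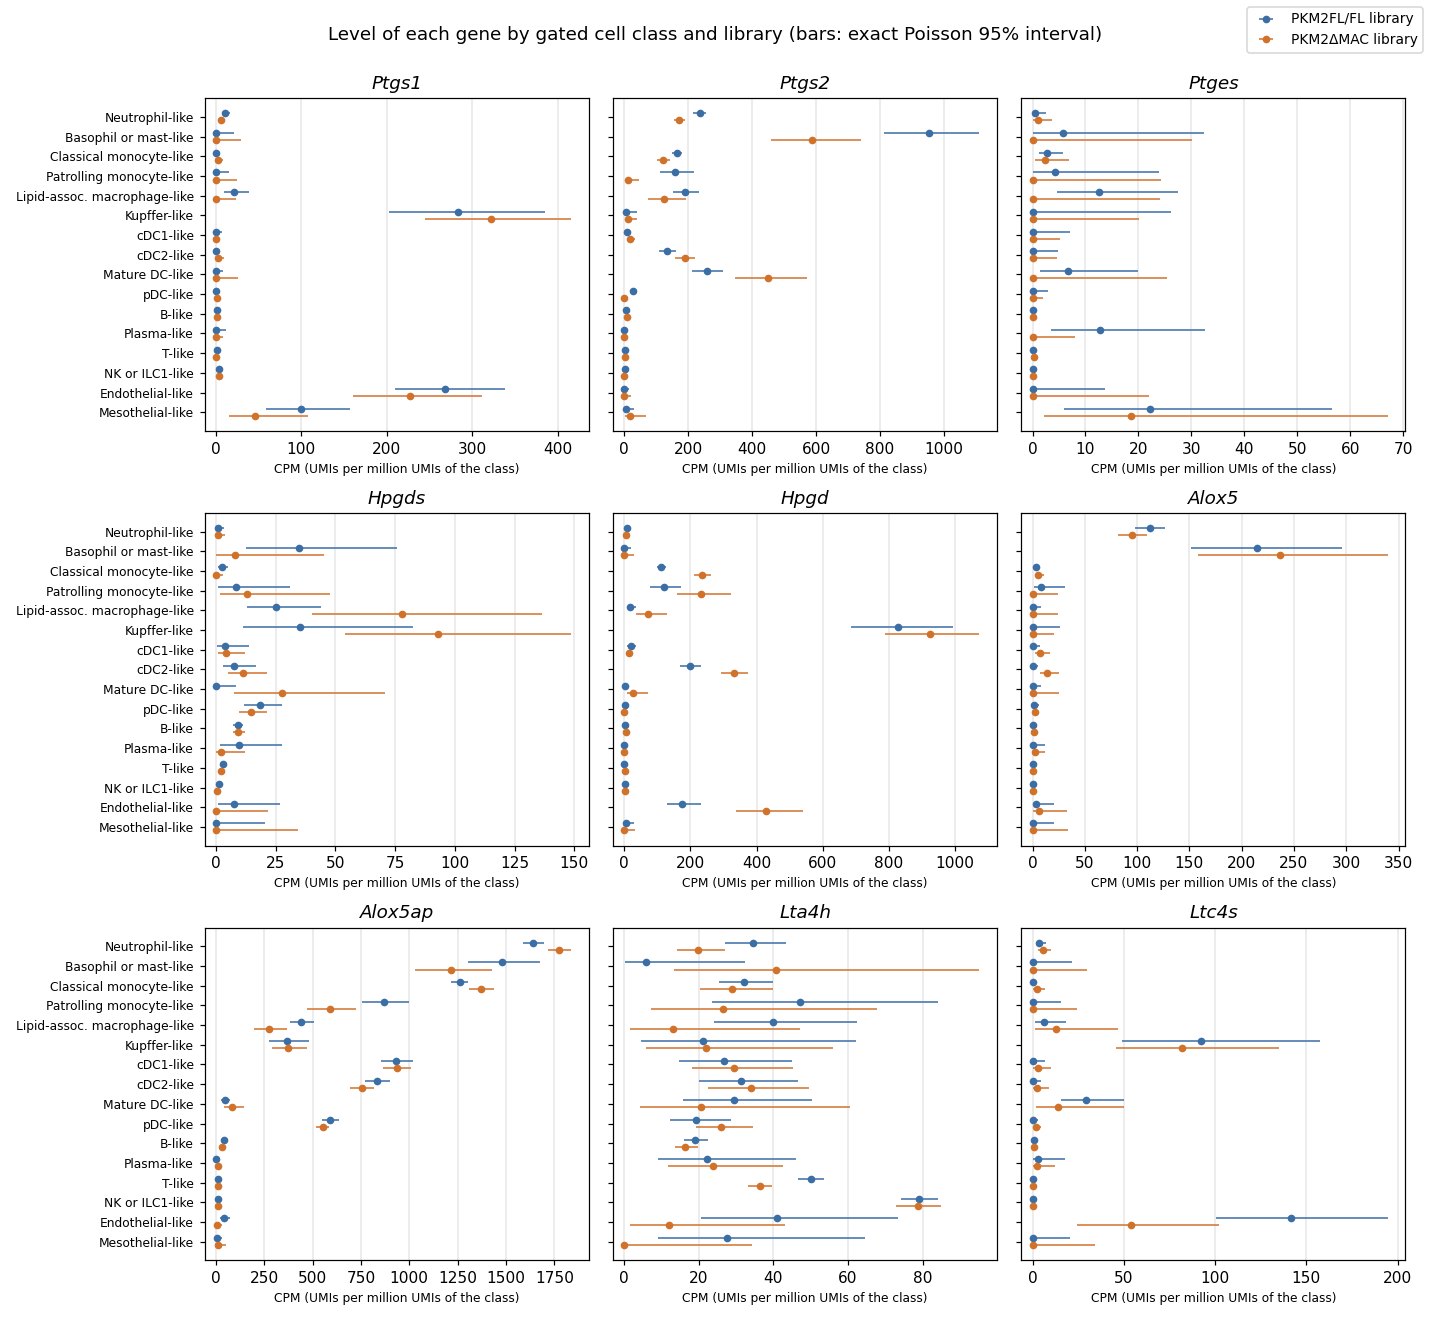
Level of each enzyme (CPM, horizontal axis, its own scale in each panel) in 16 gated classes (vertical axis), with blue for the FL/FL library, orange for the ΔMAC library and bars for exact Poisson 95% intervals. Ptgs1 and Ltc4s stand out in Kupffer-like and endothelial-like cells, Hpgd in Kupffer-like cells at 828 and 923 CPM, and Lta4h in NK or ILC1-like cells at 78.9 and 78.7 CPM.

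Ptgs1 (COX-1, chr2:36230426-36252272 on the GRCm38 plus strand) was a Kupffer-like and endothelial-like transcript. Kupffer-like cells had 283 CPM (202 to 386, 40 UMIs) in FL/FL and 322 CPM (245 to 415, 59 UMIs) in ΔMAC. Endothelial-like cells had 269 CPM (210 to 338, 72 UMIs) in FL/FL and 227 CPM (161 to 311, 38 UMIs) in ΔMAC. The top classes did not differ beyond counting error in either library, with Kupffer-like over endothelial-like at 1.05 (0.698 to 1.57) and 1.42 (0.929 to 2.19). In Kupffer-like cells the summed endothelial markers (9 genes, 2 and 3 at 0) stood at 779 and 273 CPM. Platelet markers (6 genes, 5 and 4 at 0) stood at 28.3 and 153 CPM there. The part of these markers' source cells in the Ptgs1 and Ltc4s levels of Kupffer-like cells was not tested.

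Mesothelial-like cells followed with 99.5 and 46.4 CPM, and T-like cells, which should lack the gene, had 1.94 and 0.853 CPM. A Ptgs1 UMI was found in 29.9% and 33.7% of Kupffer-like cells, at median depths of 1105 and 1094 UMIs. The same was true of 1.06% and 0.488% of T-like cells, at deeper medians of 5551.5 and 5695.5 UMIs. With every cell thinned to 1000 UMIs, which left out 43 of 97 FL/FL and 46 of 104 ΔMAC Kupffer-like cells, the Kupffer-like shares were 24.1% and 29.3%. The Ptgs1 share of endothelial-like cells was 44.1% in FL/FL and 23.4% in ΔMAC, but their median depths were 2152.5 and 916 UMIs, and after thinning the shares were 16% and 19.6%.

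Ptgs2 (COX-2, chr1:150100031-150108227, plus strand), the inducible cyclooxygenase, had the opposite pattern. Kupffer-like cells held 1 UMI in FL/FL and 2 in ΔMAC, and endothelial-like cells held 0 in both, which allows at most 13.8 and 22.0 CPM. Neutrophil-like cells had 236 CPM (215 to 257, 499 UMIs) and 172 CPM (154 to 191, 338 UMIs). Classical monocyte-like cells had 165 CPM (149 to 181) and 122 CPM (103 to 142), and cDC2-like cells had 133 CPM (108 to 161) and 189 CPM (160 to 222). Ptgs2 was lower in cDC1-like cells, at 7.68 and 19.7 CPM (4 and 14 UMIs), and patrolling monocyte-like cells had 158 CPM (37 UMIs) in FL/FL and 13.2 CPM (2 UMIs) in ΔMAC. Lipid-associated macrophage-like cells had 192 CPM of Ptgs2 in FL/FL (91 UMIs, 42 cells). In T-like cells Ptgs2 stood at 3.64 and 1.63 CPM.

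The highest Ptgs2 level was in the basophil or mast gate, 953 CPM in FL/FL (31 cells) and 587 CPM in ΔMAC (21 cells). The leading genes of that gate were basophil genes, among them Prss34 and Mcpt8. Classes taken from clusters in place of the gate gave 386 and 284 CPM of Ptgs2, and the leading genes of that larger cluster (127 cells) included Prtn3 and Elane, which mark granulocyte precursors. Mature dendritic-like cells had 258 CPM in FL/FL (60 cells) and 449 CPM in ΔMAC (19 cells), where clusters gave 166 CPM in FL/FL. A single ΔMAC mature dendritic-like cell held 35 of the 65 Ptgs2 UMIs of that class. In the basophil or mast gate 2 cells held 48.8% of the Ptgs2 UMIs in FL/FL and 2 cells 55.6% in ΔMAC. By amount, neutrophil-like cells held 26.3% and 34.4% of all Ptgs2 UMIs, monocyte-like cells 21.6% and 15.9%, and cDC2-like cells 5.38% and 15.3%.

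Within a class, Ptgs2 was concentrated in few cells. The 5% of neutrophil-like cells with most Ptgs2 held 45.9% of its UMIs in FL/FL and 51.2% in ΔMAC, with up to 21 and 12 UMIs in a cell. Among monocyte-like cells the top 5% held 50% and 65.4%. By comparison, the top 5% of neutrophil-like cells held 15.5% and 14.5% of the more abundant Alox5ap. For Alox5, which is less abundant than Ptgs2 there, the top 5% held 35.9% and 34.8%. A sparse gene is held by fewer cells through counting alone. A Ptgs2 UMI was found in 27.9% and 23.0% of neutrophil-like cells (16.6% and 14.2% after thinning) against 1.35% and 0.621% of T-like cells.

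Ptges (chr2:30889471-30929863, minus strand), the inducible prostaglandin E synthase, was near the limit of detection, with 31 UMIs in FL/FL and 13 in ΔMAC. Its highest level was in mesothelial-like cells, at 22.1 CPM (4 UMIs) and 18.6 CPM (2 UMIs), and monocyte-like cells held 7 and 3 UMIs. Kupffer-like and endothelial-like cells had 0 in both libraries. After thinning, none of the 123 FL/FL and 101 ΔMAC neutrophil-like cells with a Ptgs2 UMI had a Ptges UMI, so joint expression was not detectable at this depth.

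Hpgds (chr6:65117293-65144908, minus strand), which makes prostaglandin D2, had 240 and 207 UMIs. Kupffer-like cells had the highest level among classes with at least 50 cells, 35.4 CPM (11.5 to 82.6, 5 UMIs) and 92.8 CPM (54.1 to 149, 17 UMIs). Lipid-associated macrophage-like cells had 25.3 and 78.0 CPM from 12 UMIs in each library, in 42 and 15 cells. B-like cells had only 9.13 and 9.49 CPM, but as the larger class they held 28.3% and 31.9% of all Hpgds UMIs. pDC-like cells had 18.4 and 14.7 CPM, and T-like cells 3.11 and 1.99 CPM. In FL/FL, T-like cells with Foxp3 had 14.2 CPM (7 UMIs) and those with Cd8 and no Cd4 had 2.88 CPM (19 UMIs). In ΔMAC the 26 T-like cells with Foxp3 had 0 Hpgds UMIs, which allows at most 19.2 CPM and so does not set them below FL/FL.

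Hpgd (chr8:56294585-56321043, plus strand), which oxidises prostaglandins to inactive forms, was highest in Kupffer-like cells. They had 828 CPM (685 to 993, 117 UMIs) in FL/FL and 923 CPM (789 to 1073, 169 UMIs) in ΔMAC. A UMI was found in 59.8% and 63.5% of them (46.3% and 55.2% after thinning), against 0.473% and 1.11% of T-like cells. The next classes were cDC2-like cells at 198 and 330 CPM, endothelial-like cells at 175 and 430 CPM, patrolling monocyte-like cells at 120 and 231 CPM, and classical monocyte-like cells at 113 and 236 CPM. Kupffer-like cells exceeded the next class 4.18-fold (3.26 to 5.36) in FL/FL and 2.15-fold (1.62 to 2.87) in ΔMAC. Kupffer-like cells thus held Ptgs1 and Hpgd with almost no Ptgs2, and neutrophil-like cells held Ptgs2 with 9.44 and 6.11 CPM of Hpgd.

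Alox5 (chr6:116410077-116461178, minus strand), the first enzyme of leukotriene synthesis, was mostly a neutrophil-like transcript. Neutrophil-like cells had 112 CPM (98.1 to 127, 237 UMIs) and 95.2 CPM (82.1 to 110, 187 UMIs) and held 76.2% and 68.5% of all its UMIs. The basophil or mast gate had 215 CPM (37 UMIs) and 236 CPM (29 UMIs), with a UMI in 67.7% and 66.7% of its cells, where clusters gave 69.6 and 84.8 CPM. Kupffer-like cells had 0 Alox5 UMIs in both libraries, which allows at most 26.1 and 20.1 CPM. Classical monocyte-like cells had 3.21 and 5.46 CPM and T-like cells 0.235 and 0.284 CPM.

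Alox5 was found in 24.3% and 21.9% of neutrophil-like cells, and in 11.2% and 10.1% after thinning. Its cells were not set apart by the partner protein: after thinning, Alox5ap was found in 84.3% of FL/FL neutrophil-like cells with Alox5 and 76.0% of those without, and in 79.2% and 81.6% in ΔMAC. Ptgs2 and Alox5 met more often in thinned cells. Alox5 was found in 16.3% of FL/FL neutrophil-like cells with Ptgs2 and 10.2% of those without, and in 18.8% and 8.67% in ΔMAC. These shares are descriptions of 20 and 19 cells with both transcripts.

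Alox5ap (chr5:149264767-149288153, plus strand), which presents arachidonic acid to 5-lipoxygenase, was far more widespread among myeloid classes than Alox5. It stood at 1641 and 1775 CPM in neutrophil-like cells, 1481 and 1215 CPM in the basophil or mast gate (625 and 605 CPM with clusters) and 1261 and 1370 CPM in classical monocyte-like cells. Dendritic classes followed, with 933 and 936 CPM in cDC1-like, 835 and 755 CPM in cDC2-like and 591 and 552 CPM in pDC-like cells. Kupffer-like cells had 368 CPM (275 to 483) and 371 CPM (288 to 471). In these classes other than the basophil or mast gate and the neutrophil-like cells, Alox5 was at 0 or at most 13.9 CPM.

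Lymphoid classes had little Alox5ap, with 40.7 and 33.4 CPM in B-like, 9.74 and 12.4 CPM in T-like and 11 and 10.7 CPM in NK or ILC1-like cells. It was found in 92.3% and 94.5% of neutrophil-like cells against 3.28% and 3.32% of T-like cells. Mature dendritic-like cells stood apart from the other dendritic classes, at 47.5 and 82.8 CPM (128 CPM in FL/FL with clusters). The uncharacterised gene Gm19719 overlaps Alox5ap on the other strand, and the sources used here do not say whether counting used strand.

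Lta4h (chr10:93453411-93484875, plus strand), which makes leukotriene B4, was the only one of the 9 with its highest level among the large classes in lymphoid cells. NK or ILC1-like cells had 78.9 CPM (74.1 to 84.0, 983 UMIs) and 78.7 CPM (72.8 to 85.0, 647 UMIs). T-like cells had 49.9 CPM (46.6 to 53.4) and 36.4 CPM (33.3 to 39.7), and neutrophil-like cells 34.5 CPM (27.0 to 43.3) and 19.9 CPM (14.1 to 27.2). NK or ILC1-like and T-like cells together with B-like cells are the largest classes, and the former held 40.8% and 40.2% of all Lta4h UMIs and T-like cells 35.3% and 31.8%. Kupffer-like cells had 21.2 and 21.8 CPM from 3 and 4 UMIs.

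Ltc4s (chr11:50236461-50238616, minus strand), which makes leukotriene C4, shared its top classes with Ptgs1. Endothelial-like cells had 142 CPM (100 to 195, 38 UMIs) and 53.7 CPM (24.6 to 102, 9 UMIs), and Kupffer-like cells 92.0 CPM (49.0 to 157, 13 UMIs) and 81.9 CPM (45.8 to 135, 15 UMIs). The order of these classes could not be told in either library, with the higher over the lower at 1.54 (0.802 to 3.15) and 1.52 (0.625 to 3.95). T-like cells had 0.235 and 0.213 CPM. Mature dendritic-like cells had 29.4 and 13.8 CPM of Ltc4s (13 and 2 UMIs) with 0 Ptgs1 UMIs, and mesothelial-like cells had 0 Ltc4s UMIs in both libraries. The basophil or mast gate, with both Alox5 and Alox5ap, had 0 Ltc4s UMIs in both libraries, which allows at most 21.4 and 30.1 CPM. Gm26542 overlaps Ltc4s on the other strand.

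**Figure D2:**
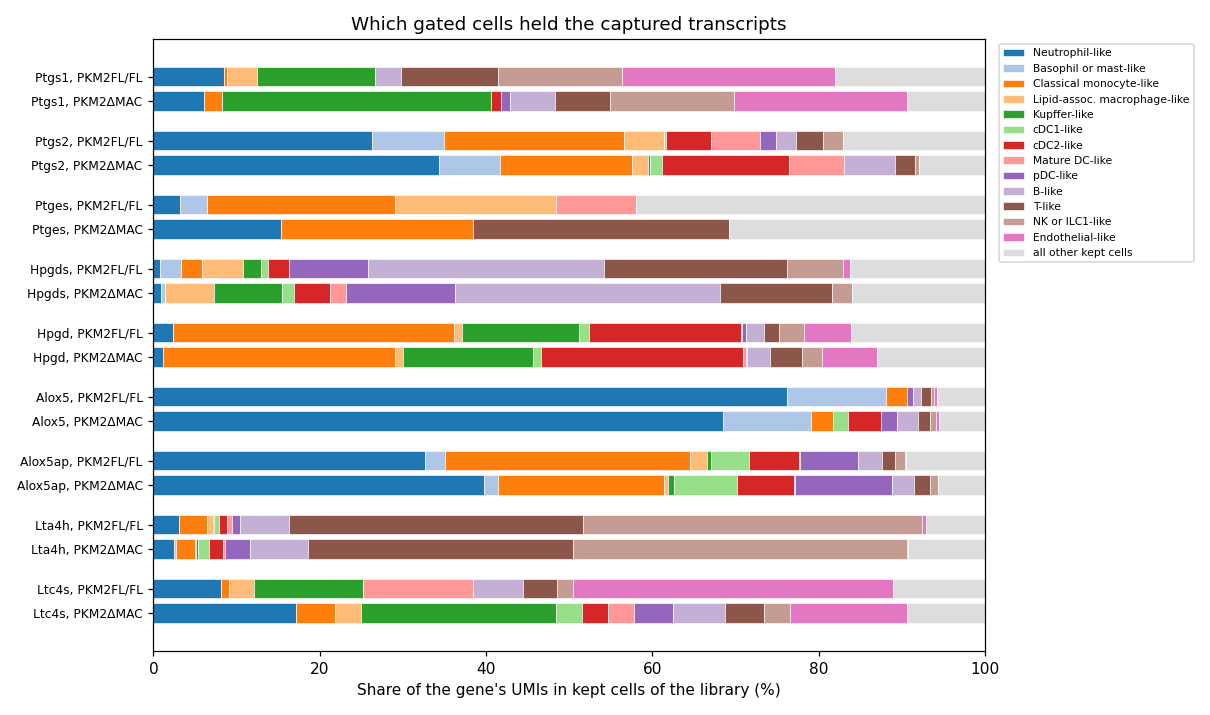
Share of each enzyme's UMIs (percent of all its UMIs in kept cells, horizontal axis) that each class held, with 1 bar per enzyme and library. Neutrophil-like cells held 76.2% and 68.5% of Alox5, NK or ILC1-like and T-like cells most of Lta4h, and the Ptges bars rest on 31 and 13 UMIs.

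Other genes with like profiles were sought over the 10 classes that had 30 cells or more in both libraries, among 10519 genes, by the mean of the 2 libraries' correlations of log2(CPM + 10). These are descriptions over 10 points that share libraries and depth. For Ltc4s the most alike gene was Ptgs1 (mean r 0.990), ahead of Clec1b and Vcam1, although Ltc4s itself had fewer than 100 UMIs in each library. Ptgs1 was most like Vcam1 (0.988), Clec1b (0.986) and Serpinb6a (0.977). Ptgs2 was most like Mcemp1 (0.939), Emilin2 and Nlrp3, and Hpgd most like Cd302 (0.958), Hfe and Cxcl16.

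Alox5 was most like Ptgs2os2 (0.972), a transcript next to Ptgs2, then Dhrs9 and Ceacam10. Alox5ap was most like the cytokine receptor chain Csf2rb (0.986), then Nfam1 and Cd300a. The likeness was weaker for Lta4h, led by Dscam (0.885), Klrg1 and Sult2b1, and for Hpgds, led by Tmem86a (0.882), Pltp and Nudt2. The choice of these genes depended on the settings: with Spearman's rho the enzymes shared at most 1 of 3 genes with the lists above.

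Between the libraries, Hpgd was higher in ΔMAC in classical monocyte-like, endothelial-like and cDC2-like cells and about equal in Kupffer-like cells. Ptgs2 was lower in ΔMAC in neutrophil-like and monocyte-like cells and higher in gated cDC2-like cells. Ltc4s was lower in ΔMAC in endothelial-like cells, and Alox5, Alox5ap and Ptgs1 in their main classes lay within 2-fold.

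Of 81 pairs of enzyme and class (9 classes, each of 50 cells or more in both libraries), 43 had at least 20 UMIs over both libraries. At least 2-fold higher in ΔMAC were 4, at least 2-fold lower were 7, and 32 lay between. Neutrophil-like cells had 6 enzymes measured and 1 apart (11.8% of all 7767 genes measured there were at least 2-fold apart). Classical monocyte-like cells had 4 and 1 (5.9% of all genes), Kupffer-like cells 5 and 1 (11.3%), cDC2-like cells 4 and 0 (7.72%) and pDC-like cells 4 and 1 (6.15%).

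B-like cells had 5 measured and 0 apart (4.09% of all genes), T-like cells 6 and 3 (5.27%), NK or ILC1-like cells 6 and 2 (3.38%), and endothelial-like cells 3 and 2 (9.02%). With 3 to 6 enzymes a class, 1 gene decides such a share. In T-like and NK or ILC1-like cells the enzymes apart were at most 3.69 CPM in either library. The 3 in T-like cells were Ptgs1, Ptgs2 and Hpgd, whose T-like levels are taken here as background. They are therefore not read as differences of T cells. The median log2 ratio of all genes was -0.35 in neutrophil-like cells and -0.14 in T-like cells and within 0.07 of 0 in the others, so ratios in the former are also given relative to it. The 9 neutrophil markers, S100a8 and S100a9 among them, took 91235 CPM in FL/FL and 155130 CPM in ΔMAC, and their part in that shift was not tested.

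Hpgd in classical monocyte-like cells was 2.09-fold higher in ΔMAC (1.77 to 2.47), from 281 UMIs in 271 cells and 302 UMIs in 157 cells. The share of cells with a UMI was 35.8% and 44.6%, and 9.23% and 20.5% after thinning. The ratio after thinning was 2.82. The 5% of cells with most Hpgd held 39.9% of its UMIs in FL/FL and 31.8% in ΔMAC. Monocyte-like cells with Gpnmb or Trem2, genes of lipid-associated macrophages, had 122 and 250 CPM, and those without had 110 and 231 CPM, so both sub-gates were higher in ΔMAC. The separate class of lipid-associated macrophage-like cells had only 18.9 CPM of Hpgd in FL/FL (9 UMIs, 42 cells). Kupffer markers in monocyte-like cells stood at 8.43 and 14.0 CPM summed over 8 genes, with 2 at 0 in each library. The 9 neutrophil markers, none at 0, stood at 380.5 and 1060 CPM in monocyte-like cells, and their part in the Hpgd and Ptgs2 differences there was not tested.

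In cDC2-like cells Hpgd was 1.67-fold higher in ΔMAC (1.36 to 2.05), and 2.15-fold (1.85 to 2.50) with classes taken from clusters. In that gate lipid-associated macrophage markers (8 genes, 0 and 1 at 0) stood at 124 and 298 CPM and classical monocyte markers (7 genes, 1 and 2 at 0) at 1002 and 651 CPM. Their part in the Hpgd and Ptgs2 differences there was not tested. Endothelial-like cells were 2.45-fold higher (1.67 to 3.62), from 47 and 72 UMIs. Kupffer markers summed over 8 genes in those endothelial-like cells stood at 433 CPM in FL/FL and 209 CPM in ΔMAC, and their part in the Hpgd difference was not tested. Kupffer-like cells, with the highest level, had a ratio of 1.11 (0.875 to 1.42). In T-like cells Hpgd was 3.31-fold higher (1.79 to 6.44), but from 15 and 41 UMIs among 2748 and 2256 cells, with up to 10 UMIs in 1 ΔMAC cell. Its T-like levels, 0.880 and 2.91 CPM, are those taken here as background.

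Ptgs2 in neutrophil-like cells was 0.731 times the FL/FL level in ΔMAC (0.635 to 0.841), a log2 ratio of -0.45. Against the median ratio of all genes in that class it was 0.931, a log2 ratio of -0.10. In classical monocyte-like cells the ratio was 0.740 (0.611 to 0.892), and 0.479 (0.257 to 0.845) after thinning. In gated cDC2-like cells it was 1.42 (1.10 to 1.85), but 0.868 (0.734 to 1.02) with classes taken from clusters, so the direction there depended on how the cells were named. A single FL/FL pDC-like cell held 32 of the 36 Ptgs2 UMIs of that class, and ΔMAC had 0. With a floor of 3 counts in place of 0 that is 17.7-fold lower, and the interval of the ratio reached up to 0.0733.

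**Figure D3:**
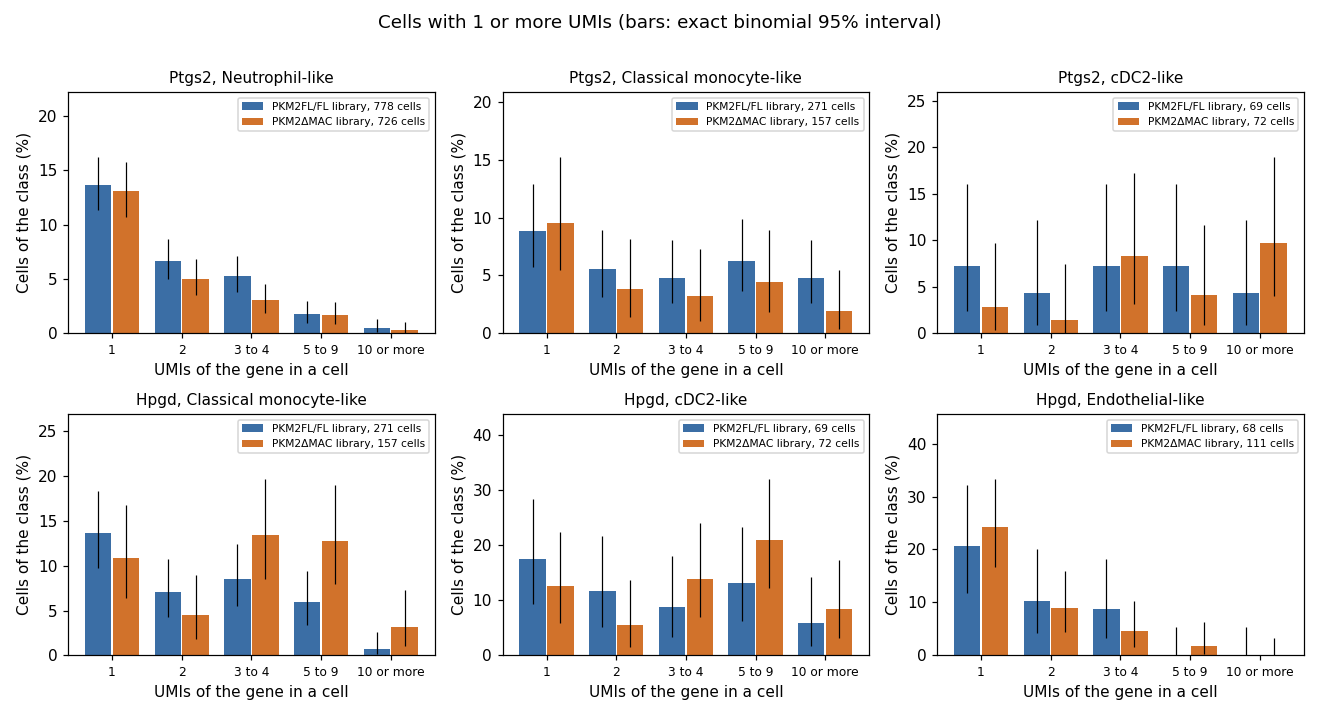
Percent of cells (vertical axis) with 1, 2, 3 to 4, 5 to 9 or 10 or more UMIs (horizontal axis) of Ptgs2 in the upper panels and Hpgd in the lower, in blue for FL/FL and orange for ΔMAC, with exact binomial 95% intervals. In monocyte-like cells the ΔMAC bars for Hpgd are above those of FL/FL from 3 UMIs upward, but their intervals overlap. The Ptgs2 intervals of the libraries overlap in every upper panel.

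Ltc4s in endothelial-like cells was 0.379 times the FL/FL level in ΔMAC (0.161 to 0.798), from 38 and 9 UMIs. The share of cells with a UMI was 27.9% and 6.31%, at unequal depth, and 14.0% and 10.9% after thinning. The summed Kupffer markers of these cells, given above, were also lower in ΔMAC (433 and 209 CPM, with 2 and 5 of 8 genes at 0), and their part in the Ltc4s difference was not tested. Kupffer-like cells had a ratio of 0.890 (0.395 to 2.03). Ptgs1 had ratios of 0.845 (0.555 to 1.27) in endothelial-like and 1.14 (0.748 to 1.74) in Kupffer-like cells, and Hpgds 2.62 (0.928 to 9.09) in Kupffer-like cells. These intervals, other than that of Ltc4s in endothelial-like cells, all contain 1.

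Among the leukotriene enzymes of neutrophil-like cells, Alox5 had a ratio of 0.851 (0.699 to 1.04), or 1.08 against the median ratio of all genes, and Alox5ap 1.08 (1.03 to 1.13). Lta4h had 0.576 (0.380 to 0.861), a log2 ratio of -0.80 and of -0.44 against the median of all genes there, where that of Alox5ap was 0.46. In these neutrophil-like cells the summed NK or ILC1 markers (9 genes) stood at 244 and 76.4 CPM, B markers (8 genes) at 206 and 95.7 CPM and T markers (5 genes) at 115 and 84.0 CPM, with none at 0. Their part in the Lta4h difference was not tested. Lta4h was 0.728 times the FL/FL level in T-like cells (0.651 to 0.814) and 0.997 times in NK or ILC1-like cells (0.902 to 1.10). Alox5ap in classical monocyte-like cells had a ratio of 1.09 (1.02 to 1.15).

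**Figure D4:**
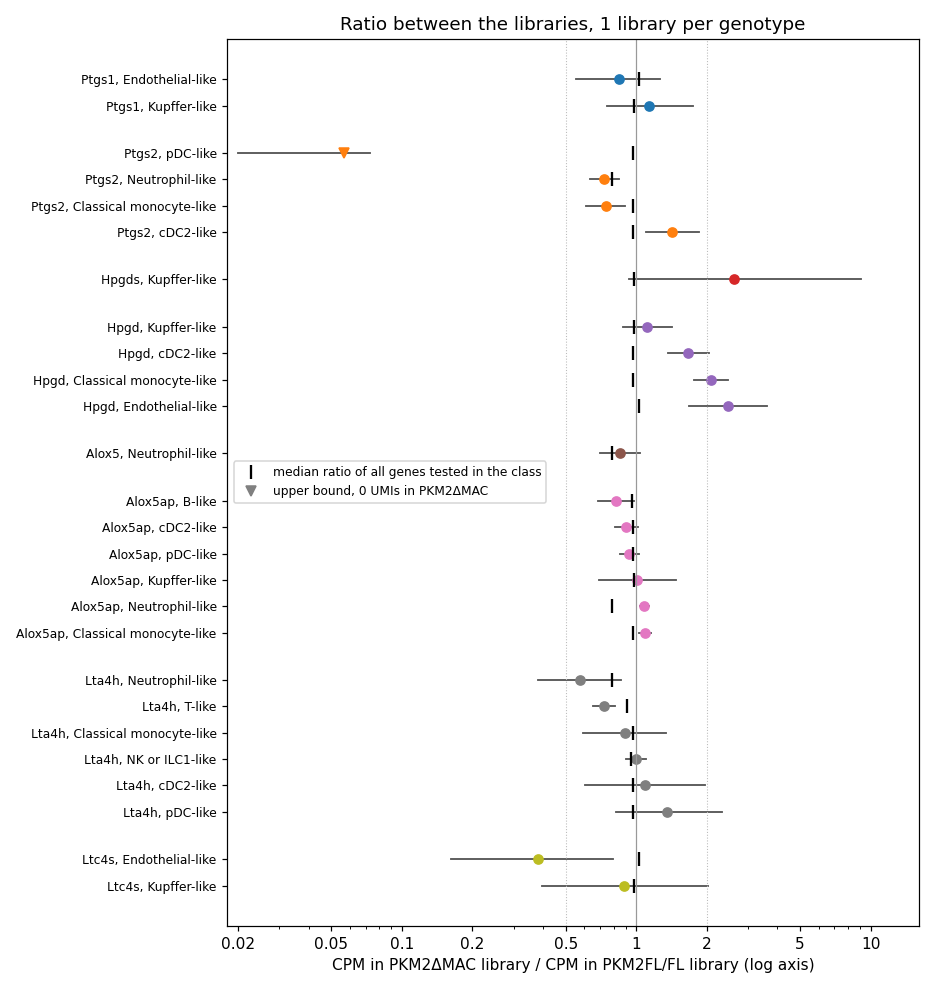
Ratio of CPM, ΔMAC over FL/FL (log axis), for the 26 measured pairs of enzyme and class at 20 CPM or more in either library, with points for ratios, bars for 95% counting intervals, a triangle for an upper bound and a black tick for the median ratio of all genes in the class. Hpgd lies to the right of 1 in cDC2-like, monocyte-like and endothelial-like cells, and Ltc4s in endothelial-like cells to the left.

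Neutrophil-like cells with Irg1 or Slc7a11, genes of activated neutrophils, were 704 of 778 in FL/FL and 610 of 726 in ΔMAC. After thinning, which also redrew the sub-gate, Ptgs2 stood at 256 CPM with and 242 CPM without these genes in FL/FL, and at 226 and 130 CPM in ΔMAC. Alox5 stood at 122 with and 133 without in FL/FL, and at 118 and 84.0 in ΔMAC. The counting intervals with and without these genes overlapped for all of these values except Ptgs2 in ΔMAC. There they lay narrowly apart (185.0 to 273 and 88.5 to 184.9).

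The pathway around the 9 enzymes was followed through 58 further genes: phospholipases, other synthases, leukotriene and lipid-mediator handling, receptors and transporters. In neutrophil-like cells 22 were measured, 1 at least 2-fold higher and 4 lower (11.8% of all genes were apart), with a median log2 ratio of -0.08 against -0.35 for all genes. Classical monocyte-like cells had 28 measured, 1 higher and 1 lower (5.9% of all genes, median 0.15 against -0.04). Kupffer-like cells had 7 measured, 0 higher and 2 lower (11.3%, 0.24 against -0.03), and endothelial-like cells 9, 0 and 1 (9.02%, -0.09 against 0.04). B-like cells had 25 measured, 0 higher and 6 lower (4.09%, -0.21 against -0.07). T-like cells had 31, 1 and 2 (5.27%, -0.22 against -0.14), and NK or ILC1-like cells 28, 0 and 4 (3.38%, -0.19 against -0.07). In cDC2-like cells 13 were measured with none apart (7.72%), and pDC-like cells had 15, 1 and 0 (6.15%).

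Named genes from that list show what the enzyme-bearing cells also held. Neutrophil-like cells had 655 and 1165 CPM of Anxa1, the lipocortin that restrains phospholipase A2, and 398 and 483 CPM of Cyp4f18, which inactivates leukotriene B4. Pla2g7, which hydrolyses platelet-activating factor, stood at 602 and 569 CPM there and at 297 and 371 CPM in Kupffer-like cells. The prostaglandin transporter Slco2a1 stood at 213 and 245 CPM in endothelial-like cells, beside Hpgd. The prostaglandin E2 receptor gene Ptger4 stood at 98.7 and 70.2 CPM in classical monocyte-like cells and at 129 and 124 CPM in cDC2-like cells. In cDC2-like cells the cysteinyl leukotriene receptor gene Cysltr1 stood at 95.1 and 113 CPM.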

How the data were processed

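The authors deposited raw UMI counts for each gene and barcode. Per the file headers these came from Cell Ranger 6.0.0, on build mm10 per the submitters' processing notes. Those notes also name Seurat 4.3.0 without its use. No barcode held fewer than 502 UMIs, so barcodes had been filtered before deposit.

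Barcodes below 300 genes or at 20% mitochondrial UMIs and above (64 and 72) were left out. Scrublet in scanpy 1.11.5 (expected rate 0.08) then removed doublets. A cell joined the class with the largest share of its markers detected, given at least 3 (2 for lists of 5 genes or fewer); ties stayed unnamed. Alternative classes came from leidenalg 0.10.2 clusters at resolution 2, with the enzymes kept out of the variable genes. Free RNA was not subtracted, and T-like values stand as background for the enzymes other than Lta4h and Hpgds. Ratios needed at least 20 UMIs over both libraries, a floor of 3 counts stood in for 0, and "apart" means at least 2-fold. For shares of cells, cells were thinned to 1000 UMIs and shallower cells left out. Intervals are exact Poisson, Clopper-Pearson or conditional, at 95%, and the ratio code was tested on simulated data.

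All 9 enzymes are named. Likeness used the 3 most alike genes with at least 100 UMIs in each library. From the wider list, genes with at least 50 UMIs in a class were eligible, and examples were picked among them. The enzymes, the lists and the tests were chosen with earlier results of these data known. Figures were drawn with matplotlib 3.10.9, and computing used Python 3.11.15 with scipy 1.17.1, numpy 2.4.6, igraph 0.11.9, anndata 0.12.19, pandas 2.3.3 and scikit-learn 1.9.0.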

Additional observations from a re-analysis of the deposited data

Results flagged for a closer look

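Ptgs2 differed between the libraries in opposite directions in different classes, each with a counting interval that left out 1. The ratio of ΔMAC over FL/FL was 1.42 in gated cDC2-like cells (102 and 150 UMIs), 0.731 in neutrophil-like cells (499 and 338 UMIs) and 0.740 in classical monocyte-like cells (410 and 156 UMIs). With 1 library per genotype the difference between classes was not tested. The intervals leave out the spread between cells. A Ptgs2 UMI was found in 21 of 69 FL/FL and 19 of 72 ΔMAC gated cDC2-like cells. The cDC2-like ratio was 0.868 when classes came from clusters, and the neutrophil-like ratio was 0.931 against the median ratio of all genes in that class.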

How the results depend on the processing

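No paired analysis was possible because each genotype had 1 library. The alternatives gave 396 ratios between libraries, of which 376 stayed within the counting interval of the reported value. Hpgd ranged from 1.91 to 2.68 in endothelial-like cells and from 1.99 to 2.82 in classical monocyte-like cells, the latter with cells thinned to 1000 UMIs. Ltc4s in endothelial-like cells ranged from 0.283 to 0.412, and Ptgs2 in neutrophil-like cells reached 0.931 against the median ratio of all genes. That Ltc4s range holds no value at equal depth, because the thinned endothelial-like cells had fewer than 20 Ltc4s UMIs. Their median depths before thinning were 2152.5 UMIs in FL/FL and 916 in ΔMAC. Leaving out the cell with most UMIs of an enzyme, an alternative chosen after seeing the data, kept all 39 ratios it gave within their intervals; pairs left with fewer than 20 UMIs gave none.

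Enzyme and class pairs at least 2-fold apart numbered 4 higher and 7 lower as reported, 2 and 3 with 1 more marker needed by the gate, and 2 and 2 after thinning. Pairs of the wider list numbered 4 higher and 20 lower as reported. Higher pairs were 2 with 1 more marker, 2 without Scrublet removal and 2 with at least 50 UMIs, and lower pairs were 3 after thinning and 10 with at least 50 UMIs. Against the median ratio of all genes the wider list had 6 higher and 17 lower. With at least 50 UMIs, 1.6% to 6.71% of all genes in a class were at least 2-fold apart, where 3.38% to 11.8% were with at least 20. The Alox5 level of FL/FL neutrophil-like cells with Irg1 or Slc7a11 was 2.11 times that of cells without in unthinned cells, but 0.765 times with clusters and 0.913 times after thinning; the cause was not tested. Of 805 levels recomputed, 601 stayed within their interval, and 40 of 85 moved out of it with clusters. Depth limits Ptges, Hpgds and Ltc4s most, with 44, 447 and 163 UMIs over both libraries.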
